A study of Mus musculus with 43 samples.

Results

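The genes described here are 10 direct transcriptional targets of the tumour suppressor p53: Cdkn1a, Ccng1, Mdm2, Bax, Bbc3, Fas, Eda2r, Phlda3, Trp53inp1 and Sesn2. They were matched by gene symbol, and all 10 were present among the 23951 genes of the 3 bulk expression tables and among the 54307 gene rows of each of the 7 single-cell libraries. p53 is a transcription factor that is held at low level by the ubiquitin ligase Mdm2, itself one of its targets, and that is stabilised when ionising radiation breaks DNA. Its targets stop the cell cycle, start cell death at the mitochondrion or through death receptors, and temper the stress response. In the intestine, radiation is known to induce p53 targets in the dividing cells at the crypt base, from which the epithelium regrows.

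The bulk libraries came from cultured primary intestinal organoids of wild-type C57BL/6 mice, in 6 groups of 3. The day-7 non-irradiated, day-7 irradiated and day-11 irradiated organoids each received vehicle or 2 ng/mL TGFB1, a cytokine that limits epithelial division, on day 6 for 24 h. Irradiated organoids had received 4 Gy on day 4, so they were collected 3 or 7 days later, and the day-11 organoids were collected after the 24 h with TGFB1 had ended. Below, day 7 and day 11 are always days of culture. Day 7 after irradiation thus stands for irradiated organoids collected on day 7, which is 3 days after the dose. A second organoid set, irradiated with 4 Gy on day 4 and profiled as single cells on day 8, held 1 library each at 0 h (vehicle for 24 h) and after 6, 15 and 24 h of 1 ng/mL TGFB1. The third set held Ki67-RFP+ crypt cells sorted from Mki67tm1.1Cle/J reporter mice, with 1 library from a non-irradiated littermate control and 2 libraries from mice 56 h after 12 Gy to the whole body. The sort for the Ki67 reporter restricts the crypt libraries to cells that divide or recently divided. The labels do not say whether replicates came from separate cultures or animals, so p-values measure only the spread between these samples, which may be technical.

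Each FPKM table had been normalized separately, so TGFB1 was tested against vehicle within a table, and levels set across tables carry no test. The tests of whether the TGFB1 change differed between 2 groups span 2 tables, and compare changes that were each taken within a table. The worth of 1 read differed by at most 1.38-fold over the 18 bulk libraries, which therefore had similar depth. The single-cell libraries held 699 to 4283 cells with a median of 6709 to 14399 transcript molecules (UMIs) per cell. Markers of mesenchymal and endothelial cells summed to at most 0.623 and 0.228 FPKM in any bulk library, and 6 immune markers to 4.51 to 23.0 FPKM.

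A promoter window of Cdkn1a is shown first because it holds the cores of a pair of adjoining 10-base p53 copies. It runs from 250 bases before to 50 bases after 1 of the 2 annotated starts of this gene. RefSeq (GRCm38.p6) gave 12 promoters for 9 of the 10 genes, with 2 for Cdkn1a and 3 for Bbc3. The search used the 10-base p53 consensus and, for 2 adjoining copies, their spaced cores CATGNNNNNNCATG, which fix 8 of the 20 bases, on both strands. The latter matched in 234 of 32851 promoters (0.712%) and among these 10 genes only in Cdkn1a. The former matched in 2745 promoters (8.36%), among them 1 each of Cdkn1a, Bax, Mdm2 and Ccng1. The other Cdkn1a promoter held a match to neither pattern. Wherever CATGNNNNNNCATG occurs the 2 patterns can overlap. For Cdkn1a, at chr17:29090729-29091028 on the plus strand, capitals mark the 20 bases from 51 to 32 bases before the start that hold these cores. The rest of the 20 bases need not follow the consensus. This window holds 2 matches to the 10-base consensus: the first 10 capitals, and a stretch upstream of them that is left in lower case. The last 10 capitals depart from the consensus at their first base. For the other 3 genes a 60-base stretch is given with the 10 matching bases in capitals, to show that a single short match is all they carry there. These lie on the minus strand at chr7:45467065-45467124 (Bax), chr10:117710910-117710969 (Mdm2) and chr11:40755437-40755496 (Ccng1). A match is a description of letters and shows neither binding nor its absence elsewhere, and Trp53inp1 had no window.
Cdkn1a: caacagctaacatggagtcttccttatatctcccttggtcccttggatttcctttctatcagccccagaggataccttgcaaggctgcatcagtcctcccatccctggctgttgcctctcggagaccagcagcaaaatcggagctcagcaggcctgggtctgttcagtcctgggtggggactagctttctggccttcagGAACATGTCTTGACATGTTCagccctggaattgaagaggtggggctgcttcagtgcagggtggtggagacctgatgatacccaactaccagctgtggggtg
Bax: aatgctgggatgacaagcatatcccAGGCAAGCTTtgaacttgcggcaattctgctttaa
Mdm2: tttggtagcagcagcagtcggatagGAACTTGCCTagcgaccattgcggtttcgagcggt
Ccng1: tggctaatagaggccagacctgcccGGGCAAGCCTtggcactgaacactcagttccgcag

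Without TGFB1, irradiated organoids at day 7 did not hold the p53 targets above the non-irradiated level. Of the 10 genes, 8 were lower in all 3 irradiated vehicle libraries than in any non-irradiated one and 2, Bbc3 and Fas, were higher, beside 44.3% and 40.7% of all genes. The median difference over the 10 genes was -0.20 on the log2 scale, beside -0.03 over all genes. Trp53 itself, the gene for p53, stood at 76.4 ± 2.58 FPKM in the non-irradiated and 173 ± 4.85 FPKM in the irradiated vehicle libraries (SD, n = 3). The summed FPKM of 9 enterocyte markers was 3297 to 3442 in the non-irradiated and 12645 to 13446 in the irradiated vehicle libraries, and its part in these levels was not tested. In bulk samples, fewer cells of a type and less RNA per cell cannot be told apart.

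From day 7 to day 11 of culture in irradiated organoids, the vehicle levels of 5 of the 10 genes were higher without overlap, beside 33.7% of all genes. Those of 2 were lower, beside 33.1%. Bbc3 was at 2.58 times, Phlda3 at 2.52 times, Eda2r at 1.87 times, Trp53inp1 at 1.52 times and Ccng1 at 1.08 times the day-7 level, and Cdkn1a was at 0.871 and Fas at 0.367 of it. Mdm2, Bax and Sesn2 overlapped between the days. With TGFB1 the irradiated day-7 libraries were above the non-irradiated ones for Mdm2, Bbc3 and Fas (3 of 10, beside 38.4% of all genes) and below for Cdkn1a, Bax, Phlda3 and Trp53inp1 (4 of 10, beside 45.7%). In irradiated organoids with TGFB1, day 11 was above day 7 for 7 of the 10, up to 4.25 times for Eda2r, and below for Cdkn1a (0.430) and Fas (0.323), beside 38.7% and 38.8% of all genes. All 9 enterocyte markers were lower without overlap on day 11 than on day 7 in irradiated organoids. Their median log2 difference was -1.72 with vehicle and -3.15 with TGFB1. All 9 were higher in irradiated than in non-irradiated day-7 libraries with TGFB1 (median 3.84). All 9 proliferation markers were lower in irradiated than in non-irradiated day-7 libraries with TGFB1 (median -0.90) and higher on day 11 than on day 7 with TGFB1 (median 1.83). The part of these markers in the p53 target levels was not tested, and levels from tables normalized separately have no test.

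**Figure D1:**
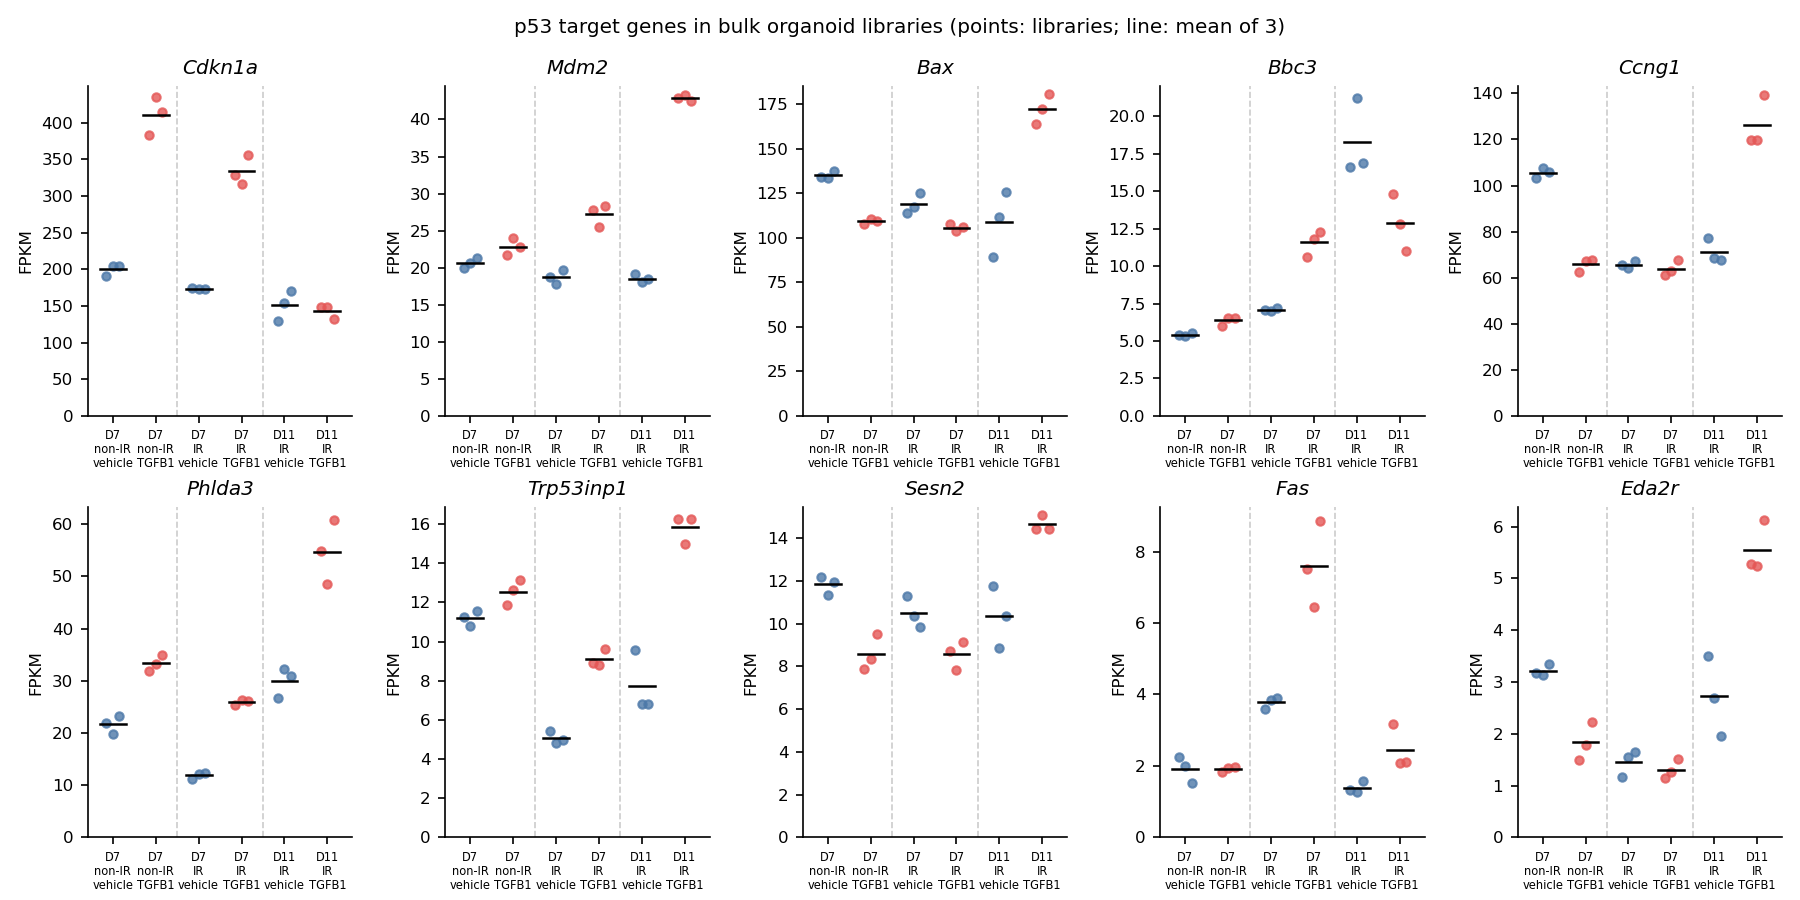
Expression of the 10 p53 targets in the 18 bulk organoid libraries: each panel is a gene, the vertical axis is FPKM, points are libraries and horizontal lines are the mean of 3 libraries, for vehicle (blue) and TGFB1 (red) in the 3 organoid groups. Cdkn1a with TGFB1 stood at 316 to 435 FPKM on day 7 and at 132 to 149 FPKM on day 11, while Mdm2 reached its highest values, 42.5 to 43.2 FPKM, on day 11.

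Cdkn1a encodes p21, the inhibitor of cyclin-dependent kinases that carries the p53 arrest. In non-irradiated organoids it measured 191, 205 and 204 FPKM with vehicle and 383, 435 and 414 FPKM with TGFB1. In irradiated day-7 organoids the values were 174, 172 and 173 FPKM with vehicle and 329, 316 and 356 FPKM with TGFB1. The TGFB1 libraries were thus all above the vehicle ones in both groups, by 2.05-fold and 1.93-fold. By limma the log2 change was 1.03 (SE 0.0466, adjusted p = 1.14e-08) without and 0.94 (SE 0.0444, adjusted p = 1.58e-08) with irradiation. The difference between these changes, -0.09 on the log2 scale (95% interval -0.24 to 0.06), did not pass the test (limma adjusted p = 0.285). On day 11 the groups overlapped, at 129, 154 and 170 FPKM with vehicle and 149, 149 and 132 FPKM with TGFB1, and the change of -0.07 was not called (limma adjusted p = 0.628). The change on day 11 was smaller than on day 7 by 1.01 log2 units (SE 0.128, limma adjusted p = 1.06e-05).

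Ccng1 encodes cyclin G1, a p53 target that takes part in the feedback on p53. With vehicle and no irradiation it measured 103, 108 and 106 FPKM, and with TGFB1 62.5, 67.3 and 67.7 FPKM. Irradiated day-7 vehicle libraries were already in the lower range, at 65.6, 64.1 and 67.2 FPKM, and those with TGFB1 overlapped them at 61.1, 62.7 and 67.9 FPKM. Of the 2 day-7 groups, Ccng1 thus fell with TGFB1 in the non-irradiated one (limma log2 change -0.67, SE 0.0386, adjusted p = 6.34e-08, against -0.04, adjusted p = 0.452), and the difference between the 2 changes passed the test (0.63, adjusted p = 9.30e-07). On day 11 the direction was the opposite, with vehicle at 77.0, 68.3 and 67.8 FPKM and TGFB1 at 120, 120 and 139 FPKM (limma log2 change 0.82, SE 0.0920, adjusted p = 3.97e-05).

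Mdm2, the ligase that degrades p53, changed most on day 11. The vehicle libraries of the 3 groups all lay between 17.8 and 21.4 FPKM. With TGFB1 it measured 21.8, 24.0 and 22.8 FPKM without irradiation, 27.8, 25.5 and 28.4 FPKM on day 7 after irradiation, and 42.9, 43.2 and 42.5 FPKM on day 11. The 3 TGFB1 groups did not overlap one another, nor any vehicle library. By limma the log2 changes were 0.14 (SE 0.0468, adjusted p = 0.0227), 0.52 (SE 0.0547, adjusted p = 8.17e-06) and 1.17 (SE 0.0648, adjusted p = 4.60e-07). The call in non-irradiated organoids rested on single libraries: without vehicle replicate 1 its adjusted p was 0.0822, without vehicle replicate 2 it was 0.0548 and without TGFB1 replicate 2 it was 0.0878 (limma). The changes after irradiation and by day 11 were each larger than in the group before, by 0.38 (limma adjusted p = 0.000591) and 0.65 (limma adjusted p = 7.46e-06).

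Bax, which opens the mitochondrial outer membrane, and Bbc3 (Puma), which frees Bax-type proteins from their inhibitors, moved in opposite directions. Bax measured 134, 134 and 137 FPKM with vehicle and 108, 111 and 109 FPKM with TGFB1 in non-irradiated organoids. After irradiation it measured 114, 117 and 125 against 108, 104 and 106 FPKM on day 7, and 89.1, 112 and 126 against 164, 173 and 181 FPKM on day 11. Bax was therefore lower with TGFB1 in both day-7 groups and higher on day 11, with no overlap of libraries in any of the 3. The limma log2 changes were -0.30 (adjusted p = 5.09e-06), -0.17 (adjusted p = 0.00398) and 0.67 (SE 0.122, adjusted p = 0.000908). Bbc3 measured 5.37, 5.34 and 5.52 FPKM with vehicle and 6.03, 6.55 and 6.55 FPKM with TGFB1 without irradiation. After irradiation it measured 7.04, 6.99 and 7.22 against 10.6, 11.8 and 12.3 FPKM on day 7, and 16.6, 21.2 and 16.9 against 14.8, 12.8 and 11.0 FPKM on day 11. Bbc3 thus rose with TGFB1 on day 7 and fell on day 11, with limma log2 changes of 0.20 (adjusted p = 0.00786), 0.64 (adjusted p = 3.82e-06) and -0.47 (SE 0.122, adjusted p = 0.00700). The vehicle level of Bbc3 on day 11 was 3.37 times that of non-irradiated organoids of day 7, the largest such ratio among the 10 genes. Irradiation and day of culture both differ there and cannot be told apart.

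The receptor genes Fas and Eda2r had the lowest mean FPKM of the 10 in each group. Fas, the receptor for Fas ligand, measured 2.24, 2.00 and 1.53 FPKM with vehicle and 1.82, 1.95 and 1.98 FPKM with TGFB1 in non-irradiated organoids, and the groups overlapped. In irradiated day-7 organoids it measured 3.58, 3.85 and 3.89 FPKM with vehicle and 7.52, 6.44 and 8.85 FPKM with TGFB1, a 2.01-fold difference (limma log2 change 0.84, SE 0.0947, adjusted p = 1.47e-05). The difference in response from non-irradiated organoids, also 0.84, passed the test (SE 0.143, limma adjusted p = 0.000202). On day 11 Fas was low again, at 1.33, 1.26 and 1.57 FPKM with vehicle and 3.17, 2.09 and 2.10 FPKM with TGFB1 (limma log2 change 0.52, adjusted p = 0.00782). Eda2r, the receptor for ectodysplasin A2, fell with TGFB1 in non-irradiated organoids from 3.17, 3.13 and 3.34 FPKM to 1.49, 1.79 and 2.23 FPKM (limma log2 change -0.58, adjusted p = 0.000280). In irradiated day-7 organoids its vehicle and TGFB1 libraries overlapped at 1.15 to 1.65 FPKM. On day 11 it measured 3.5, 2.7 and 1.96 FPKM with vehicle and 5.28, 5.24 and 6.12 FPKM with TGFB1, with a limma log2 change of 0.83 (adjusted p = 0.000794).

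Phlda3, which competes with the kinase AKT for membrane lipids and so restrains survival signals, was higher with TGFB1 in all 3 groups, as was Mdm2. Without irradiation its difference was 1.54-fold, against 1.11-fold for Mdm2. It measured 22.0, 19.8 and 23.3 against 31.8, 33.2 and 35.0 FPKM without irradiation and 11.2, 12.1 and 12.3 against 25.4, 26.4 and 26.1 FPKM on day 7 after it. On day 11 the values were 26.7, 32.2 and 30.9 against 55.0, 48.6 and 60.7 FPKM. The limma log2 changes were 0.60 (SE 0.0596, adjusted p = 6.35e-06), 1.06 (SE 0.0487, adjusted p = 1.27e-08) and 0.85 (SE 0.100, adjusted p = 5.64e-05). Irradiated day-7 vehicle libraries were at 0.548 of the non-irradiated day-7 level. Those of day 11, which also differ in day of culture, were at 1.38 times that level. Trp53inp1, a nuclear protein that promotes p53 activity and autophagy, was also higher with TGFB1 in each group. Its vehicle libraries measured 11.2, 10.8 and 11.6 FPKM without irradiation, 5.42, 4.83 and 4.99 FPKM on day 7 and 9.57, 6.80 and 6.80 FPKM on day 11. With TGFB1 they measured 11.9, 12.6 and 13.2, then 8.89, 8.79 and 9.60, then 16.3, 15.0 and 16.3 FPKM, with no overlap with the matching vehicle libraries. The limma log2 changes were 0.15 (adjusted p = 0.0247), 0.73 (SE 0.0626, adjusted p = 1.52e-06) and 0.96 (SE 0.120, adjusted p = 8.09e-05). The first of these was lost when vehicle replicate 1 (adjusted p = 0.0527), vehicle replicate 2 (0.0874), TGFB1 replicate 2 (0.0595) or TGFB1 replicate 3 (0.0995) was left out.

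Sesn2, a stress-induced brake on the growth kinase mTORC1, fell with TGFB1 on day 7 and rose on day 11. It measured 12.2, 11.3 and 11.9 against 7.86, 8.32 and 9.50 FPKM without irradiation and 11.3, 10.3 and 9.85 against 8.70, 7.84 and 9.12 FPKM on day 7 after it. On day 11 it measured 11.8, 8.86 and 10.4 FPKM with vehicle and 14.4, 15.1 and 14.4 FPKM with TGFB1. The libraries did not overlap in any of the 3 groups, and the limma log2 changes were -0.43 (adjusted p = 0.000161), -0.27 (adjusted p = 0.00487) and 0.47 (adjusted p = 0.00222).

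**Figure D2:**
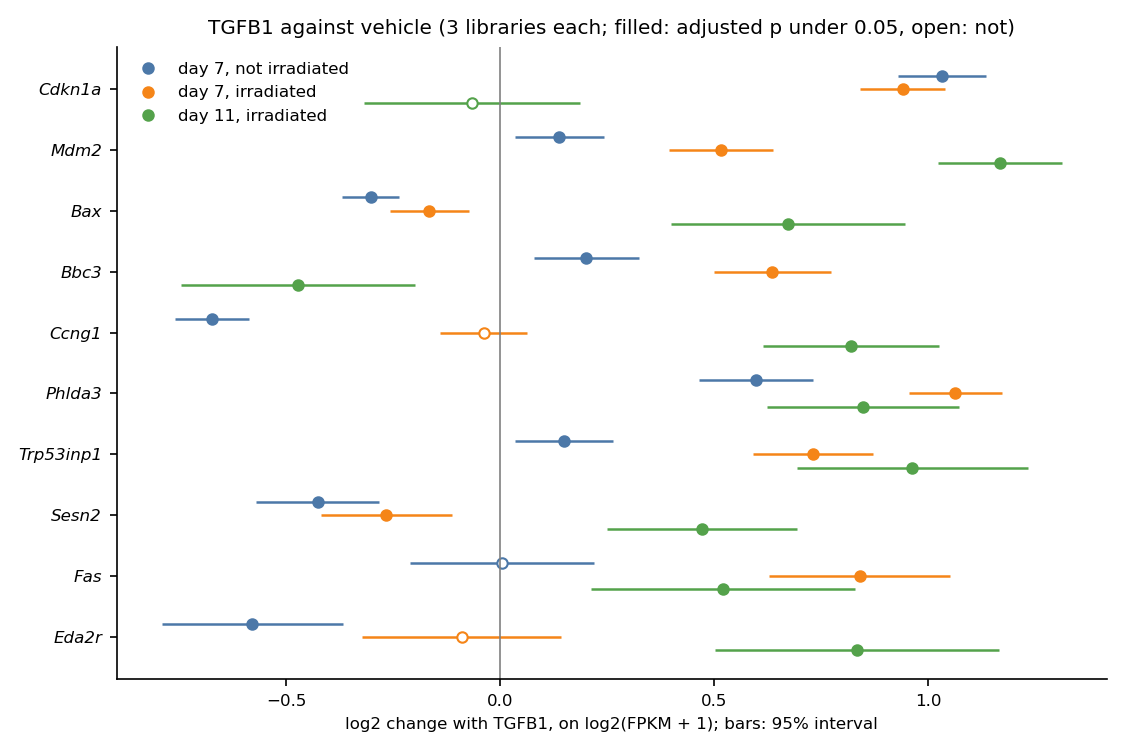
Change with TGFB1 of each p53 target in the 3 organoid groups, as log2 change in FPKM + 1 on the horizontal axis with its 95% interval from limma; filled points passed adjusted p under 0.05. Cdkn1a lies at 1.03 and 0.94 on day 7 and at -0.07 on day 11, and Ccng1, Bax, Sesn2 and Eda2r lie at or below 0 on day 7 and above 0 on day 11.

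Counted over the 10 genes, TGFB1 raised 5 and lowered 4 in non-irradiated organoids, raised 6 and lowered 2 on day 7 after irradiation, and raised 8 and lowered 1 on day 11. TGFB1 moved most of the transcriptome: 68.2%, 75.5% and 63.9% of all genes tested passed in the 3 comparisons, with 33.3%, 35.8% and 32.3% higher and 34.9%, 39.7% and 31.6% lower. The 9, 8 and 9 members called are therefore read against those shares. The median log2 change over the 10 genes was 0.07, 0.58 and 0.75, beside -0.02, -0.03 and 0.01 over all genes tested. The response to TGFB1 was more positive in irradiated than in non-irradiated day-7 organoids for 8 of the 10 genes, while 25.3% of all genes passed as more positive and 27.8% as more negative (53.1% in all). The other 2 were Cdkn1a, given above, and Sesn2, with a difference of 0.16 (limma adjusted p = 0.192). In irradiated organoids the response was more positive on day 11 than on day 7 for 5 and more negative for 2, Cdkn1a and Bbc3, beside 31.5% and 33% of all genes (64.5% in all). These 2 contrasts share the irradiated day-7 libraries. Bax is the weakest of the 8: its difference of 0.14 (limma adjusted p = 0.0320) missed the threshold when any of 6 libraries was left out (without D7 non-IR vehicle replicate 3, TGFB1 replicate 1 or TGFB1 replicate 3, or D7 IR vehicle replicate 1, vehicle replicate 2 or TGFB1 replicate 1; adjusted p 0.0547 to 0.0864) and when all 18 libraries shared 1 fit (0.371).

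Cell type markers moved with TGFB1 as well. The summed FPKM of 9 proliferation markers was 586 to 590 with vehicle and 464 to 490 with TGFB1 without irradiation, 509 to 527 and 175 to 203 on day 7 after it, and 519 to 589 and 548 to 571 on day 11. The summed FPKM of 7 markers of the regenerative, fetal-like state (Clu and Anxa1 among them) was 210 to 344 over all vehicle libraries and 2759 to 5447 over all TGFB1 libraries. The summed FPKM of 9 enterocyte markers was 3297 to 3442 with vehicle and 1830 to 1975 with TGFB1 without irradiation, 12645 to 13446 and 18628 to 19483 on day 7 after it, and 3361 to 5913 and 2012 to 2358 on day 11. That of 8 enteroendocrine markers was 442 to 469 and 472 to 498, then 568 to 625 and 1643 to 1825, then 942 to 1123 and 377 to 473. TGFB1 libraries were thus above vehicle ones for both lists in irradiated day-7 organoids and below for both on day 11. The part of these lists in the changes of the p53 targets was not tested.

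Outside the 10 genes, the other p53 targets did not move as a block. Of 32 listed genes, TGFB1 raised 12 and lowered 14 of 29 tested without irradiation, raised 15 and lowered 11 of 29 on day 7 after it, and raised 13 and lowered 11 of 30 on day 11. Over all genes tested, the shares were 33.3%, 35.8% and 32.3% higher and 34.9%, 39.7% and 31.6% lower. The median log2 changes of the listed targets were -0.10, 0.14 and 0.15. Plk2, a stress-induced polo kinase, rose in all 3 groups, from 7.16 to 32.1, from 5.91 to 25.3 and from 5.49 to 27.8 FPKM (limma log2 changes 2.03, 1.92 and 2.14, adjusted p = 1.75e-08, 1.93e-09 and 1.97e-07). Pmaip1 (Noxa), a trigger of mitochondrial death, rose from 44.2 to 81.7 FPKM without irradiation (limma log2 change 0.87, adjusted p = 2.51e-08). Gadd45a, a growth-arrest and DNA-damage gene, rose from 16.4 to 48.4 FPKM on day 7 after irradiation (limma log2 change 1.5, adjusted p = 1.14e-07). The genes that fell most on day 7 were Ckap2, Psrc1 and Gtse1, which act on the mitotic spindle or in G2 and mitosis, with limma log2 changes of -0.98 to -1.64 over both groups. On day 11 those that fell most were Sesn1, a relative of Sesn2 (17.1 to 5.70 FPKM, limma log2 change -1.44, adjusted p = 7.29e-07), the DNA repair gene Ddb2 (-1.30, adjusted p = 1.65e-06) and the peptide transporter Tap1 (-1.23, adjusted p = 4.18e-06). Sesn1 and Sesn2 thus moved in opposite directions on day 11.

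Of p53 itself and its listed regulators, TGFB1 raised 3 and lowered 6 of 14 without irradiation, lowered 7 of 14 in irradiated day-7 organoids, and raised 4 and lowered 2 of 15 on day 11. These counts stand beside 33.3%, 35.8% and 32.3% of all genes tested that were higher, and 34.9%, 39.7% and 31.6% lower. Trp53 rose from 76.4 to 87.2 FPKM (limma log2 change 0.19, adjusted p = 0.00112), was 173 and 167 FPKM on day 7 after irradiation (-0.06, adjusted p = 0.290), and rose from 199 to 251 FPKM on day 11 (0.34, adjusted p = 0.0139). Cdkn2a, whose p19Arf product blocks Mdm2, measured 0.418 ± 0.163 FPKM with vehicle and 7.86 ± 1.28 FPKM with TGFB1 on day 11 (SD, n = 3), a limma log2 change of 2.64 (adjusted p = 2.86e-07). The table does not separate its p16 and p19Arf transcripts. The checkpoint kinase genes Chek1 and Chek2 were the 2 that fell most on day 7 in both groups, Chek1 from 4.80 to 1.54 FPKM after irradiation (limma log2 change -1.19, adjusted p = 4.32e-07).

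The cell cycle genes that p53 and p21 are known to lower through the DREAM repressor fell with TGFB1 in both day-7 groups. This held for 16 of 17 without irradiation and 17 of 17 after it, beside 34.9% and 39.7% of all genes, with medians of -1.02 and -1.77. Ccnb2, cyclin B2, fell from 78.5 to 28.7 FPKM without irradiation, and Mki67 fell from 56.6 to 11.4 FPKM after it (limma log2 changes -1.42 and -2.23, adjusted p = 5.18e-10 and 4.26e-09). On day 11, 7 of the 17 were higher and 2 lower, beside 32.3% and 31.6% of all genes, with a median of 0.10. Cdkn1a was higher with TGFB1 in both day-7 groups and was not called on day 11. Of the other listed inhibitors of cyclin-dependent kinases, TGFB1 raised 1 and lowered 2 of 5 tested without irradiation. It raised 2 and lowered 2 of 4 on day 7 after it, and raised 2 and lowered 3 of 5 on day 11. Over all genes tested, 33.3%, 35.8% and 32.3% were higher and 34.9%, 39.7% and 31.6% lower. Cdkn2b, a known TGFB target, rose from 40.4 to 84.3 FPKM on day 7 after irradiation (limma log2 change 1.04, adjusted p = 8.19e-09) and from 18.9 to 38.7 FPKM on day 11 (1.00, adjusted p = 1.29e-05). Cdkn2c fell in all 3 groups (limma log2 changes -0.98, -1.73 and -0.58).

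The BCL2 family, to which Bax and Bbc3 belong, was mostly higher with TGFB1. This held for 9 of 10 tested without irradiation, 8 of 10 in irradiated day-7 organoids and 7 of 10 on day 11. Of all genes tested, 33.3%, 35.8% and 32.3% were higher. Bok, a Bax-like effector, rose in all 3, from 15.6 to 76.8, from 15.2 to 124 and from 21 to 53.9 FPKM (limma log2 changes 2.23, 2.95 and 1.32, adjusted p = 3.21e-11, 2.47e-10 and 2.26e-06). Bcl2l11 (Bim), a death trigger that TGFB is known to induce, rose from 5.34 to 15.9 FPKM without irradiation and from 3.57 to 14.8 FPKM on day 7 after it (limma log2 changes 1.41 and 1.79, adjusted p = 3.66e-09 and 1.22e-09). The lists other than the 10 genes carry no test of the list as a whole.

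Over the 18 bulk libraries, which fall into 6 groups of 3 and so share treatment and table, the genes whose pattern was most like that of Cdkn1a were Mxd1 (Pearson r = 0.98 on the log2 scale), Trim15 (0.98), Serpinb6a (0.97), Snx7 (0.97) and Prdx5 (0.97), among 9040 genes compared. Those most like Mdm2 included Mal (0.98), Fn1 (0.97), Ppl (0.96) and Traf3 (0.96). Cdkn1a and Mdm2 were not alike (r = -0.08). Fas and Eda2r, below a mean of 5 FPKM, were not compared; of the other 6 p53 targets, Mdm2 was most like Phlda3 (0.74) and Trp53inp1 (0.72), and Cdkn1a was least like Sesn2 (-0.75). These are descriptions of 18 libraries with no test.

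In sorted crypt cells, 56 h after 12 Gy, all 10 p53 targets were higher in both irradiated libraries than in the non-irradiated one. By edgeR's quasi-likelihood test on summed UMIs, 10 of 10 were called higher, beside 17.2% of 16397 genes tested, and 9 of 10 were at least 2-fold higher in both irradiated libraries, beside 14% of genes. The median log2 change was 1.95, beside 0.00 over all genes. The non-irradiated group is 1 library, which the fit assumes to vary like the irradiated ones. Levels below are UMIs per 1000000 UMIs of a library (CPM) with exact Poisson 95% intervals, which cover counting error only.

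Phlda3 had the largest difference of the 10, at 1.98 CPM (1.47 to 2.60) in the non-irradiated library and 78.4 (73.8 to 83.2) and 115 CPM (109 to 121) in the irradiated ones. This was 39.6 and 58.1 times the non-irradiated level (edgeR log2 change 5.43, SE 0.285, adjusted p = 5.44e-08). Eda2r, at 0.893 CPM (0.566 to 1.34) without and 14.6 (12.6 to 16.7) and 26.2 CPM (23.4 to 29.2) after irradiation, came next (edgeR log2 change 4.32, SE 0.396, adjusted p = 4.18e-06). Trp53inp1, at 2.21 CPM (1.68 to 2.87) without and 24.5 (21.9 to 27.2) and 44.0 CPM (40.4 to 47.8) after irradiation, followed (edgeR log2 change 3.76, SE 0.342, adjusted p = 3.81e-06). These 3 had the fewest UMIs of the 10 in the non-irradiated library. The arrest genes stood higher at the start: Cdkn1a measured 64.7 CPM (61.6 to 67.9) without and 199 (192 to 207) and 308 CPM (299 to 318) after irradiation (edgeR log2 change 1.79, SE 0.227, adjusted p = 6.13e-05). Ccng1 measured 62.3 CPM (59.3 to 65.4) without and 263 (254 to 272) and 365 CPM (354 to 376) after irradiation, the highest level of the 10 (edgeR log2 change 2.15, SE 0.204, adjusted p = 5.42e-06).

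Bax measured 61.7 CPM (58.7 to 64.8) without and 186 (179 to 193) and 241 CPM (233 to 250) after irradiation (edgeR log2 change 1.61, SE 0.183, adjusted p = 2.35e-05). Bbc3 measured 13.4, 32.5 and 34.8 CPM in the same order (edgeR log2 change 1.15, SE 0.171, adjusted p = 0.000215), and Sesn2 measured 6.75, 23.4 and 37.6 CPM (1.99, SE 0.262, adjusted p = 8.10e-05). Fas had the smallest difference, at 4.27, 7.35 and 10.3 CPM (edgeR log2 change 0.86, SE 0.281, adjusted p = 0.0312), and its call was lost with DESeq2 (adjusted p = 0.281) and with all barcodes kept (adjusted p = 0.0552). Mdm2 measured 21.6, 70.3 and 113 CPM (edgeR log2 change 1.91, SE 0.240, adjusted p = 5.73e-05). Its counts are uncertain because 50.0%, 78.1% and 72.6% of its UMIs came as fractions shared with other genes. With whole-number entries only, Mdm2 had a log2 change of 1.00 and was not called (edgeR adjusted p = 0.0602). In each of the 10 genes the irradiated replicate 2 stood above replicate 1, by 1.07 to 1.80 times.

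**Figure D3:**
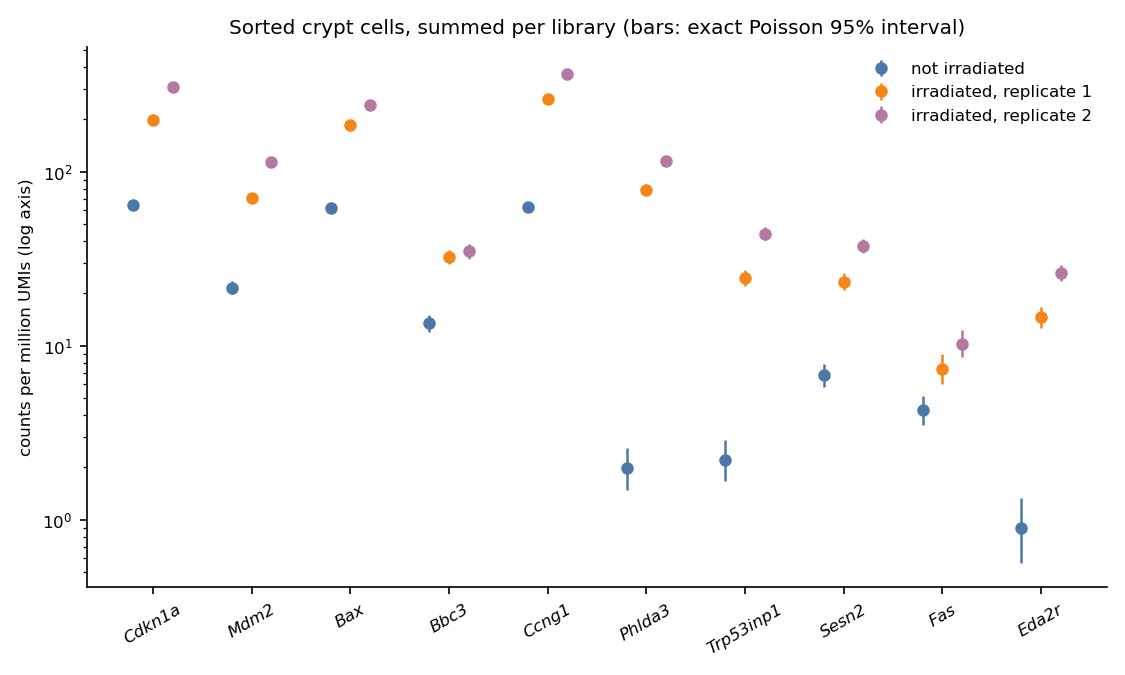
Levels of the 10 p53 targets in sorted Ki67-RFP+ crypt cells, as CPM on a log axis with exact Poisson 95% intervals, in the non-irradiated library and in 2 libraries from mice 56 h after 12 Gy. Both irradiated points lie above the non-irradiated one for every gene, from Fas (4.27 against 7.35 and 10.3 CPM) to Phlda3 (1.98 against 78.4 and 115 CPM).

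Among the other listed p53 targets, 17 of 31 tested were higher in the irradiated crypt cells and 4 lower, with a median log2 change of 0.54. Of all genes tested, 17.2% were higher and 16.7% lower. Zmat3, an RNA-binding p53 target, measured 7.37, 59.4 and 83.1 CPM in the non-irradiated library and the irradiated replicates 1 and 2 (edgeR log2 change 3.09, adjusted p = 6.31e-07). Zfp365, a p53 target that guards against replication stress, had 1 UMI in the non-irradiated library (0.0388 CPM, 0.000983 to 0.216) and 8.88 and 14.4 CPM in the irradiated ones. Psrc1, which fell with TGFB1 in organoids, rose here from 8.89 to 65.2 and 87.5 CPM (edgeR log2 change 2.92, adjusted p = 5.76e-07). The 4 that were lower were Sesn1 (31.9, 6.84 and 8.42 CPM, edgeR log2 change -2.24, adjusted p = 2.06e-06), Gpx1 (-1.32), Ddb2 (-0.93) and Gadd45a (-0.48). Sesn1 and Sesn2 thus moved in opposite directions here as well. Trp53 was at 61.4, 77.7 and 66.7 CPM and was not called (edgeR adjusted p = 0.810). Of 17 DREAM cell cycle genes 1 was higher and 3 lower, beside the same 17.2% and 16.7% of all genes. These cells had all been sorted for the Ki67 reporter. Summed proliferation markers were at 1285, 1476 and 1297 CPM. Regenerative markers were at 2.36, 455 and 598 CPM, enterocyte markers at 4072, 802 and 2354 CPM and Paneth markers at 3272, 895 and 1120 CPM, and their part in the p53 target levels was not tested. Mesenchymal markers (2.49, 1.46 and 2.19 CPM), endothelial markers (6.26, 10.7 and 11.6 CPM) and immune markers (7.67, 12.0 and 8.75 CPM) were low in the 3 libraries, with Cdh5, Dcn and Lum at 0 UMIs, after rounding, in each.

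Cells were also clustered with the 10 genes left out, and levels in the clusters are given as descriptions, with names taken from marker lists rebuilt here. The clusters of crypt cells split by library, so that clusters 0, 1 and 5 came almost wholly from the non-irradiated library and clusters 2, 3 and 4 only from the irradiated ones. Cluster 2, regenerative-like (Ly6d, Anxa8, Sprr1a and Clu, with the p53 target Zfp365 also among its leading genes), held 247 of 719 and 340 of 699 cells of the irradiated replicates 1 and 2. There Cdkn1a stood at 385 and 425 CPM, Ccng1 at 489 and 529, Phlda3 at 159 and 161 and Trp53inp1 at 61.7 and 68.9 CPM. In cluster 4, led by Khdc1a, Rgcc and Lrp8, the same genes stood at 87.0 and 123, 141 and 166, 31.0 and 43.2, and 2.57 and 7.08 CPM. The irradiated cells were thus not uniform: cluster 2 was above cluster 4 for each of these 4 genes in both libraries, and the replicate with more p53 target RNA also had more cells in cluster 2. Cluster 3, led by small RNAs, lay between them for Cdkn1a, at 138 and 232 CPM.

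In the non-irradiated library, Cdkn1a was lowest in the stem-like cluster 0 (26.5 CPM, 23.6 to 29.9) and highest in the enterocyte-like cluster 5 (119 CPM, 109 to 130). Between these 2 clusters Phlda3 and Eda2r had the opposite order, at 3.66 and 2.16 CPM in cluster 0 and at 0.235 and 0 CPM in cluster 5. Fas stood at 1.03 CPM in cluster 0 and 12.2 CPM in cluster 5. Goblet-like cluster 6 was the 1 cluster with at least 20 cells of each library (69, 38 and 20). In it Phlda3 measured 2.56 CPM (0.310 to 9.24) without and 22.1 (12.1 to 37.1) and 24.9 CPM (11.4 to 47.2) after irradiation. Cdkn1a measured 89.8 CPM (69.8 to 113), 104 CPM (80.6 to 133) and 255 CPM (205 to 312) there, so only replicate 2 lay outside the counting interval of the non-irradiated cells. These are single libraries, with no test.

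**Figure D4:**
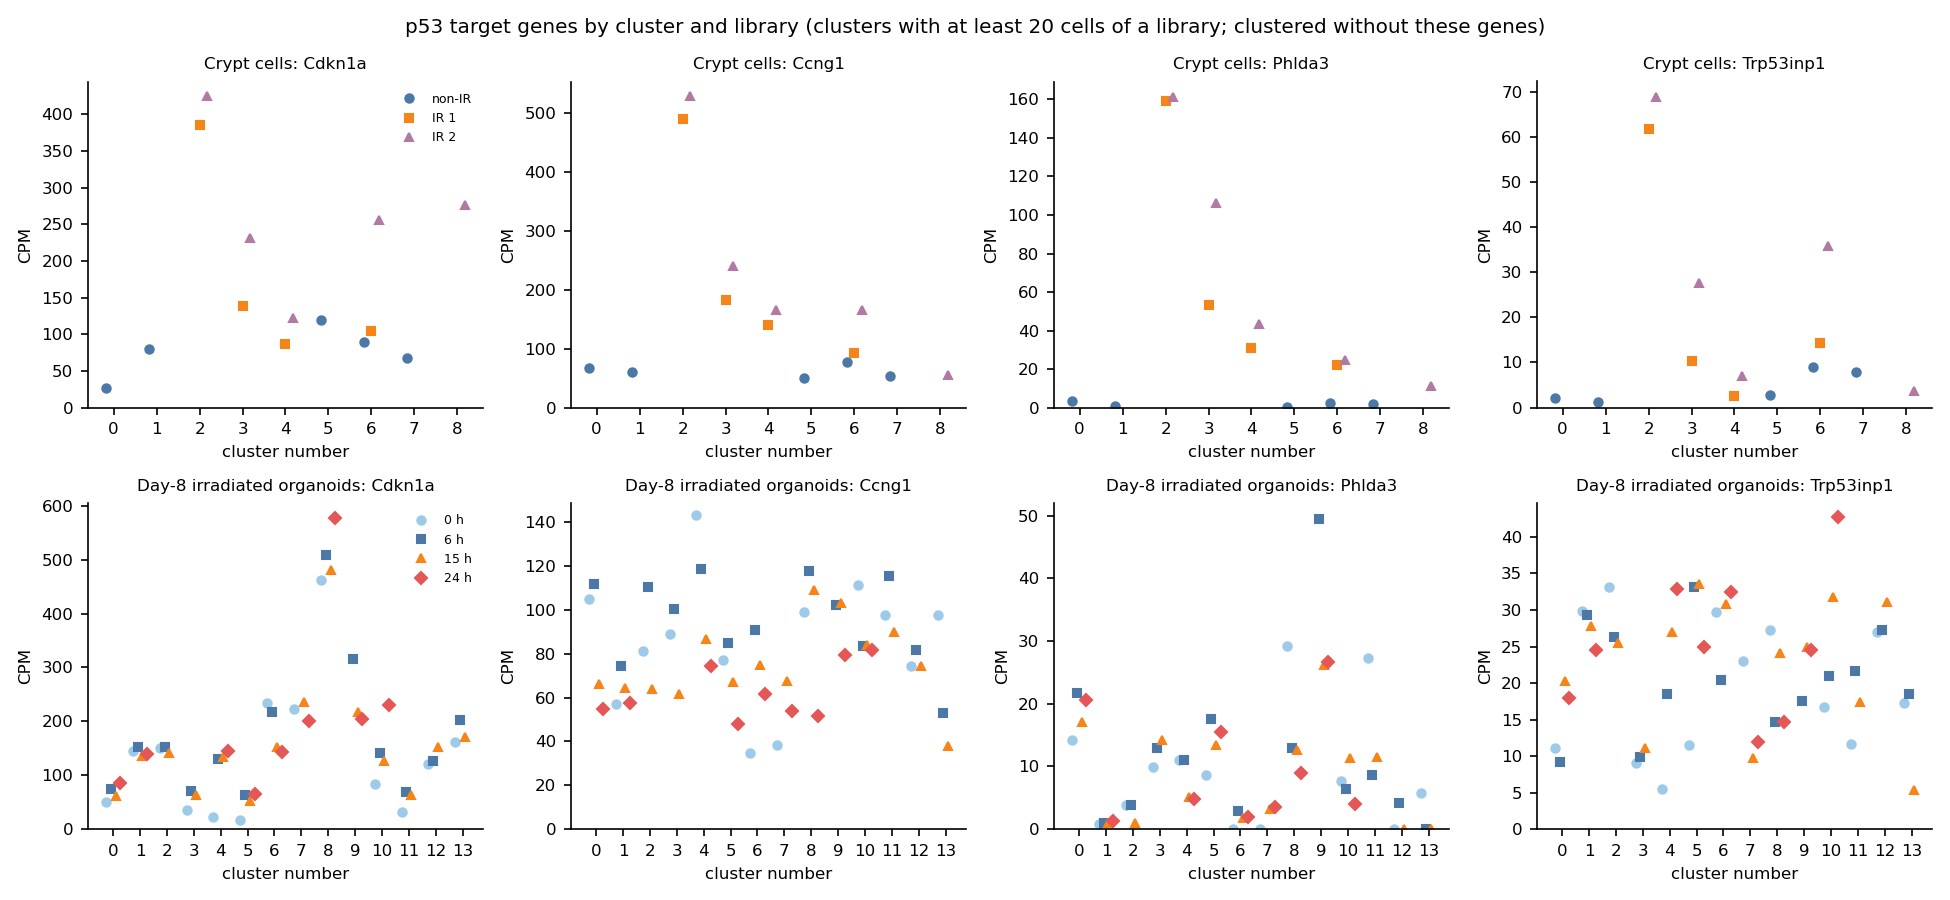
Levels of Cdkn1a, Ccng1, Phlda3 and Trp53inp1 by cluster, in CPM on a linear axis from 0, for the crypt libraries (top row) and the day-8 organoid libraries (bottom row); each point is the sum over the cells of 1 library in 1 cluster with at least 20 cells. The irradiated crypt cluster 2 reaches 425 CPM for Cdkn1a and 161 CPM for Phlda3, and day-8 cluster 8 reaches 577 CPM for Cdkn1a.

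In the day-8 organoids, 1 library per time with no test, the p53 targets had no common direction over 24 h of TGFB1. Cdkn1a measured 109 CPM (105 to 113) at 0 h, 128 (124 to 132) at 6 h, 129 (125 to 133) at 15 h and 149 CPM (145 to 154) at 24 h. Ccng1 measured 85.6, 99.6, 74.4 and 61.7 CPM at the same times, and Bax 92.6, 82.1, 74.5 and 79.4 CPM. Cdkn1a was thus highest, and Ccng1 lowest, at 24 h, with intervals for Ccng1 of 82.2 to 89.2 at 0 h and 58.9 to 64.5 CPM at 24 h. The 24 h library also had the highest median UMIs per cell (10441) and mitochondrial percent (4.85%) of the day-8 libraries. It held 400 of the 504 cells of day-8 cluster 7, led by small RNAs. With 1 library per time, such differences between libraries and the time with TGFB1 cannot be told apart. Sesn2 was 16.8 CPM (15.3 to 18.4) at 0 h and 11.5 to 12.1 CPM at the other times, and Eda2r 3.07 CPM (2.45 to 3.80) at 0 h and 1.31 to 1.60 CPM thereafter. Phlda3 measured 8.70, 11.6, 8.78 and 11.1 CPM, Trp53inp1 20.8, 18.5, 26.4 and 25.3 CPM, Bbc3 21.9, 18.3, 21.4 and 25 CPM, and Fas 12.9, 10.2, 13.3 and 15.3 CPM. None of these 4 was ordered by time. Mdm2 measured 33.8, 33.4, 37.3 and 38.8 CPM, with 24.1% to 55.8% of its UMIs shared with other genes, and with whole-number entries only its 24 h level lay below that at 0 h (log2 ratio -0.43). Regenerative markers summed to 44.4, 101, 455 and 1071 CPM over these times, and proliferation markers to 918, 1033, 643 and 658 CPM, and their part was not tested.

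**Figure D5:**
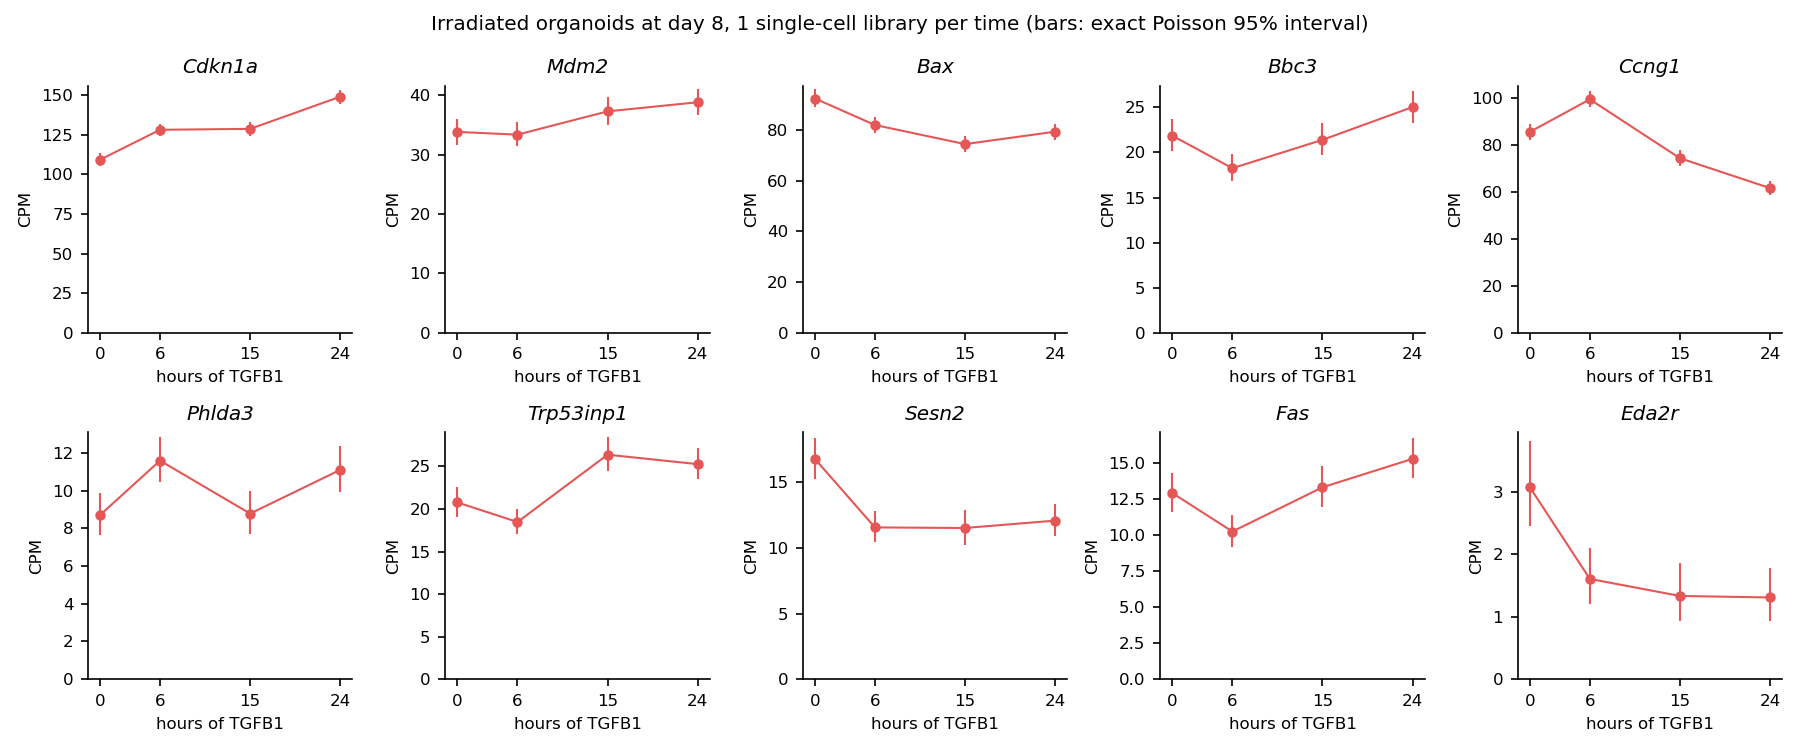
Levels of the 10 p53 targets in irradiated day-8 organoids after 0, 6, 15 and 24 h of TGFB1, in CPM with exact Poisson 95% intervals, 1 library per time. Cdkn1a goes from 109 CPM at 0 h to 149 CPM at 24 h, and Ccng1 from 85.6 to 61.7 CPM.

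Between day-8 clusters the levels differed more than between times. Cluster 8 was enterocyte-like by the marker lists and was led by Ada, Clca4a, Pnliprp2 and Sprr1a. It had Cdkn1a at 463, 509, 480 and 577 CPM at 0, 6, 15 and 24 h, above every other cluster plotted. The proliferating-like cluster 0 had Cdkn1a at 51.2, 75.3, 62.2 and 86.1 CPM and cluster 1, also enterocyte-like, at 146, 153, 136 and 140 CPM. Phlda3 stood at 14.2 to 21.7 CPM in cluster 0, 0.808 to 1.25 CPM in cluster 1 and 8.99 to 29.3 CPM in cluster 8. Fas stood at 2.72 to 4.76 CPM in cluster 0, 24.8 to 28.9 CPM in cluster 1 and 12.6 to 17.5 CPM in cluster 8, so neither was ordered over the 3 clusters as Cdkn1a was, or in reverse. Within cluster 0, Ccng1 measured 105 CPM (97.3 to 113) at 0 h and 54.6 CPM (47.9 to 62.0) at 24 h, and within cluster 1 it measured 57.1 CPM (50.7 to 64.2) and 57.4 CPM (48.2 to 67.8). The regenerative-like cluster 9 (Anxa8, Ly6d, Anxa1 and Il1rn) held 30, 118 and 207 cells at 6, 15 and 24 h, with Cdkn1a at 315, 218 and 205 CPM and Phlda3 at 49.6, 26.2 and 26.6 CPM.

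Organoids and crypts are set side by side here with no comparison, since dose (4 against 12 Gy), time (3 and 7 days against 56 h), assay and cells all differed. No non-irradiated organoids were collected on day 11. The organoid values 7 days after 4 Gy are therefore set against non-irradiated organoids of day 7. Irradiation and day of culture cannot be told apart in them. Phlda3 stood at 0.548 of the non-irradiated level in vehicle organoids 3 days after 4 Gy and at 1.38 times 7 days after it, against 39.6 and 58.1 times in the 2 crypt libraries. Cdkn1a stood at 0.865 and 0.754 of the non-irradiated level in organoids, against 3.08 and 4.77 times in crypts. Trp53inp1 stood at 0.453 and 0.689, against 11.1 and 19.9 times, and Eda2r at 0.454 and, with overlapping libraries, 0.846, against 16.3 and 29.3 times. Bbc3 was above the non-irradiated level in both systems, at 1.31 and 3.37 times in organoids and 2.42 and 2.59 times in crypts. Fas stood at 1.96 times 3 days after 4 Gy and, with overlapping libraries, at 0.720 on day 11, against 1.72 and 2.41 times in crypts. On day 11, 2 of the 10 genes, Bbc3 and Phlda3, lay above the non-irradiated vehicle libraries without overlap (38.3% of all genes) and 5 below (37.7%).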

How the data were processed

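The expression tables hold FPKM (fragments scaled by gene length and library depth), computed by the authors and deposited as 3 tables of 6 libraries each. The submitters' processing notes name TopHat2 2.1.0, Cuffnorm 2.2.1, STAR 2.7.10a, STARsolo and the builds mm9 and GRCm39 without tying each to a file. The single-cell matrices hold expected counts of UMIs as deposited by the authors, with 8.67% to 22% of UMIs as fractions shared between genes; sums were rounded to whole numbers. Barcodes entered with 500 or more UMIs, 250 or more genes and mitochondrial UMIs of up to 20%, and doublets (0.429% to 1.98% called) were not removed. Each FPKM table was tested as log2(FPKM + 1) with limma 3.58.1 (trend, robust, genes averaging 1 FPKM or more; R 4.3.3), so fold changes are on that scale and understate those of low genes. Differences between changes were interaction terms over 12 libraries. Summed crypt UMIs were tested with edgeR 4.0.16, with DESeq2 1.42.0 as an alternative. Clusters came from scanpy 1.11.5. Calls are Benjamini-Hochberg adjusted p under 0.05 over all genes. Scripts were tested on simulated data. The 10 genes, the lists and the naming rule (from each list up to 3 genes per direction, called, libraries not overlapping, largest change) were chosen with earlier results of these data known. Genes outside that rule, such as Trp53 on day 7 after irradiation and Trp53 and Gadd45a in crypts, were named after their values were seen. Groups came from the labels. The alternatives were another pseudocount, filter, scaling, fit over 18 libraries, replicate block, cell and barcode choices, and each library left out. ATAC-seq peak lists were not used. A gene that the rule on likeness to Mdm2 named is not reported here.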

Additional observations from a re-analysis of the deposited data

Results flagged for a closer look

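In 8 of the 10 genes the change with TGFB1 differed between irradiated and non-irradiated day-7 organoids, by the limma test of the difference itself. Of all genes tested, 53.1% passed it. The difference (irradiated minus non-irradiated, log2) was 0.38 for Mdm2, 0.14 for Bax, 0.43 for Bbc3, 0.63 for Ccng1, 0.47 for Phlda3, 0.58 for Trp53inp1, 0.84 for Fas and 0.49 for Eda2r.

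In 7 of the 10 the change with TGFB1 differed between day 11 and day 7 in irradiated organoids, near the share of all genes tested (64.5%). The difference (day 11 minus day 7, log2) was -1.01 for Cdkn1a, 0.65 for Mdm2, 0.84 for Bax, -1.11 for Bbc3, 0.86 for Ccng1, 0.74 for Sesn2 and 0.92 for Eda2r. For Bax, Bbc3 and Sesn2 the change passed the test with opposite signs on the 2 days.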

How the results depend on the processing

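Of 102 alternative values of the 18 counts over the 10 genes, 101 stayed within 1.5 times. The exception was the number lower without overlap on day 11 than on day 7 (irradiated, vehicle), which was 1 in place of 2 after quantile normalization of all 18 libraries. Of 910 alternative values of single genes, 863 were counted as the same. For tested changes, direction and call were then kept. Untested values only had to stay within the spread or counting interval, so some changed sign or overlap. With quantile normalization, Bax on day 11 against day 7 (irradiated, vehicle) went from -0.139 to 0.0206. Cdkn1a there went from lower without overlap to overlapping. Of the rest, 21 lost the call, 4 gained it (Phlda3, Trp53inp1 and Fas in the day by TGFB1 difference, each with a day-11 library left out), 15 moved beyond the spread and 7 were counted as reversed. The reversals touched values that had not been called or tested. The change of Fas with TGFB1 in non-irradiated organoids was -0.0401 with quantile normalization and ran from -0.0956 to 0.0809 with each library left out. That of Cdkn1a on day 11 was 0.0595 with quantile normalization and ran from -0.174 to 0.0252. The day-8 log2 ratio of Mdm2, 24 h to 0 h, was -0.43 with whole-number entries. With all 18 libraries in 1 fit, calls were also lost for Bbc3 (limma adjusted p = 0.0672) and Trp53inp1 (0.162) without irradiation and Bax (0.0790) on day 7 after it. With quantile normalization Mdm2 without irradiation was not called (limma adjusted p = 0.0517). Leaving out irradiated crypt replicate 2 gave 3.71 for Eda2r, with no test. The numbers of genes called were 9, 8, 9, 8 and 7 in the 5 organoid tests with the replicate block as without it. Same-numbered libraries correlated by -0.11 to 0.23, with 1 of 3 numbers per table best with its own, so the numbers were not taken to pair the samples. Counts are limited in the crypts by the single non-irradiated library, and for Eda2r there by 23 UMIs.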
